A study of Mus musculus with 3 samples.

Results

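The clustered protocadherin genes were followed across whole-genome bisulfite sequencing of male germ cells. All RefSeq genes of mouse chromosome 18 whose symbols start with *Pcdha*, *Pcdhb* or *Pcdhg* were taken, which gave 58 genes of the 21772 that were measured in the same way across the genome. The alpha cluster holds 14 of them, the beta cluster 22 and the gamma cluster 22, including *Pcdhgb8*, which RefSeq lists as a transcribed pseudogene. All 58 lie on the plus strand of mm10, and their windows and the DNA between and behind them span chr18:36929285-37841873. Each gene was measured in a window from 1 kb before to 2.5 kb after its start, which takes in its promoter and its variable exon. No 2 of these windows overlap. The remaining DNA of each cluster was measured as the spaces between the windows and as the constant exons that the genes of a cluster share. The rule uses gene names and no methylation values, although the clusters were picked for description with earlier results of these data known.

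Protocadherins are adhesion molecules of the cadherin superfamily, and the clustered ones are known above all from neurons, where they give each cell a surface identity. In the alpha and gamma clusters each gene has its own promoter and a large variable exon for the extracellular and membrane part, which is spliced to the shared constant exons for the cytoplasmic part. The beta genes have a variable exon only. Neurons choose a few of the alternate promoters at random, with CTCF and cohesin bridging a promoter to distant enhancers, whereas the C type genes at the ends of the alpha and gamma clusters are used more constantly. DNA methylation of the promoters and exons is known to go with silent copies. The *de novo* methyltransferases set this methylation in the embryo. In male germ cells, DNMT3L is their cofactor during the *de novo* methylation before birth. PLD6 is a mitochondrial membrane protein needed to make piRNAs, the small RNAs that guide methylation to retrotransposons.

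Spermatogonia of C57BL6/J mice had been sorted by EpCAM at postnatal day 7, and 1 library was at hand for each genotype: WT, *Pld6* KO and *Dnmt3l* KO. The study's methods count *Pld6* +/+, *Pld6* +/- and *Dnmt3l* +/- animals as wild type, and the labels do not say which of these gave the WT library. The methods also describe biological replicates, but with 1 file per genotype no test between genotypes could be made, and a genotype cannot be told apart from its library. Calls at CpG sites numbered 43757722 for WT, 64076569 for the *Pld6* KO and 19289688 for the *Dnmt3l* KO, with overall levels of 0.703, 0.722 and 0.301. A methylation level is the share of methylated calls among the pooled calls of a region's CpG sites, given as a fraction. Intervals of levels are 95% Wilson intervals and intervals of differences are 95% Newcombe intervals. Both cover counting error only and are too narrow where several calls come from 1 read. The 58 windows had 147 to 548 calls each in WT, 162 to 714 in the *Pld6* KO and 55 to 251 in the *Dnmt3l* KO. The first exon of *Pld6* had 90 calls in WT, 40 in *Dnmt3l* KO and 0 in *Pld6* KO. Exons 4 to 9 of *Dnmt3l* had 16 in WT, 51 in the *Pld6* KO and 0 in the *Dnmt3l* KO, so that both knockout labels were met by the reads. The region within 500 bp of the start of *Kcnq1ot1*, an imprinted region that is unmethylated in male germ cells and methylated on the maternal copy in somatic cells, had levels of 0.078 in WT, 0.07 in the *Pld6* KO and 0.0154 in the *Dnmt3l* KO.

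In WT the gene windows, pooled by cluster, were weakly methylated islands in methylated surroundings. Among single windows, 8 of 58 (13.8%) had a level of at least 0.3, against 25.6% of 17949 genes over the genome. The highest was *Pcdhgc5* with 0.728. A low level from 1 kb before to 2.5 kb after the start was not particular to the clusters. The median WT level was 0.107 in the 58 genes, 0.124 over the genome and 0.0997 in genes with 55 to 186 CpG sites, the range of the clusters. The windows of the alpha cluster had a level of 0.0833 (95% interval 0.0759 to 0.0914), those of the beta cluster 0.137 (0.128 to 0.146) and those of the gamma cluster 0.175 (0.167 to 0.184). The spaces between them had 0.699 (0.679 to 0.719), 0.648 (0.624 to 0.673) and 0.597 (0.574 to 0.619). In every cluster and in each of the 3 libraries the spaces were above the windows, by 0.616 in the alpha, 0.511 in the beta and 0.422 in the gamma cluster of WT. In *Dnmt3l* KO, windows and spaces were both far below WT, and the windows were nearly free of methylation, with 0.011 (0.00718 to 0.0167) in the alpha, 0.0147 (0.0105 to 0.0206) in the beta and 0.0276 (0.0224 to 0.0339) in the gamma cluster. The WT minus *Dnmt3l* KO difference was 0.0724 (0.063 to 0.0813), 0.122 (0.112 to 0.133) and 0.147 (0.137 to 0.158) in the 3 sets of windows. Size and order of these differences depended on the window, with 0.0263, 0.154 and 0.0502 within 0.5 kb of the start and 0.106, 0.299 and 0.137 from 2 kb before to 0.5 kb after it. In *Pld6* KO the alpha windows were near WT, with 0.0806 (0.0738 to 0.088), while the beta windows were above it with 0.192 (0.182 to 0.202) and the gamma windows with 0.197 (0.189 to 0.206). Between WT and *Pld6* KO the differences, WT minus KO, were 0.00268 (-0.00783 to 0.0133) in the alpha, -0.0548 (-0.0682 to -0.0414) in the beta and -0.0223 (-0.0342 to -0.0103) in the gamma windows. In the alpha cluster the sign turned in both other windows, to -0.0187 and -0.0153. For the gamma windows the difference shrank to -0.00284 when the levels of the sites were averaged in place of pooling the calls.

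**Figure D1:**
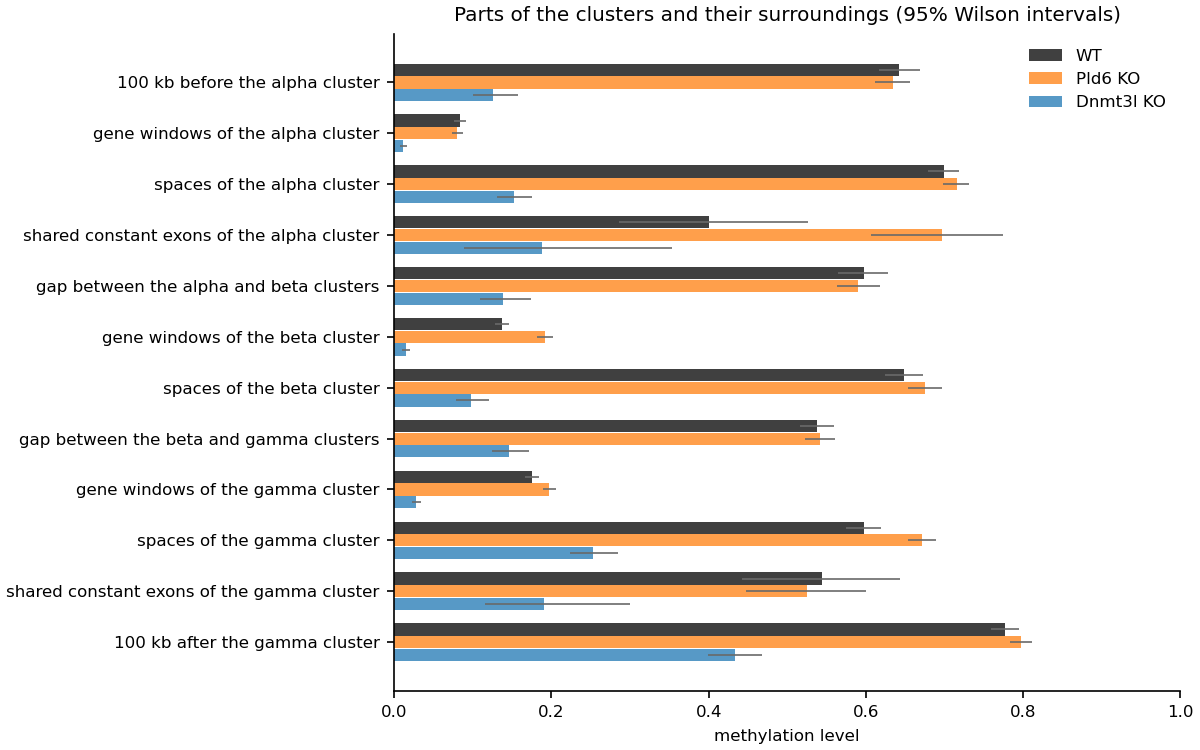
Methylation level (horizontal axis, fraction) of each part of the 3 clusters and of the 100 kb on either side, one bar per library with its 95% Wilson interval. Pooled by cluster, the gene windows stayed at or under 0.197 in every library, whereas the spaces reached 0.699 in WT and fell short of 0.3 in *Dnmt3l* KO.

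The 12 alternate genes of the alpha cluster, *Pcdha1* to *Pcdha12*, formed the most even group. Their WT levels ran from 0.0524 to 0.109 with a median of 0.0863, their *Pld6* KO levels from 0.0434 to 0.0988, and their *Dnmt3l* KO levels from 0 to 0.0284. *Pcdha12*, the lowest of the cluster in WT, had 0.0524 (0.036 to 0.0757) in WT, 0.0971 (0.0713 to 0.131) in the *Pld6* KO and 0.00667 (0.00118 to 0.0368) in the *Dnmt3l* KO. It was also the gene of the cluster with the largest excess in *Pld6* KO. *Pcdha8* had 0.107 (0.0773 to 0.147) in WT, 0.0846 (0.0623 to 0.114) in the *Pld6* KO and 0 (0 to 0.036) in the *Dnmt3l* KO, the largest distance between WT and *Dnmt3l* KO in the cluster. *Pcdha10* had the smallest, with 0.0593 in WT, 0.0988 in the *Pld6* KO and 0.0284 in the *Dnmt3l* KO, and *Pcdha6* was the furthest below WT in *Pld6* KO, with 0.109 in WT, 0.0675 in the *Pld6* KO and 0.00699 in the *Dnmt3l* KO. The start-proximal parts of the 12 genes, from 0.25 kb before to 1 kb after the start, had 0.0421 (0.0321 to 0.0549) in WT and 0.0655 (0.0541 to 0.0791) in *Pld6* KO. The WT minus KO difference was -0.0234 (-0.0402 to -0.00624). The KO was above WT in 9 of 12 genes, against 55.5% of 17402 genes over the genome in the same part. In 0 of the 12 the *Pld6* KO interval lay above the WT interval, against 2.39% of those genes. Neither genome share was matched for WT level or number of calls. The order of the genes in WT and *Pld6* KO was hardly related, with a Spearman's rho of 0.156 over the 14 genes of the cluster. The WT levels of these 14 genes spanned only 0.0524 to 0.13, and the interval of *Pcdha8* alone was 0.0773 to 0.147. How far counting error sets this order was not tested.

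The 22 beta genes spread more widely. Their WT levels ran from 0.0297 in *Pcdhb7* to 0.382 in *Pcdhb16* with a median of 0.122, and their *Pld6* KO levels from 0.0686 to 0.488 with a median of 0.183. *Pcdhb16* (chr18:37477768-37483038) had 0.382 (0.315 to 0.453) in WT, 0.488 (0.412 to 0.564) in the *Pld6* KO and 0.0909 (0.0486 to 0.164) in the *Dnmt3l* KO, and it was the highest of the cluster in each library. *Pcdhb7* (chr18:37341702-37345207) had 0.0297 (0.0151 to 0.0576) in WT, 0.145 (0.112 to 0.185) in the *Pld6* KO and 0 (0 to 0.0405) in the *Dnmt3l* KO, so that the lowest gene of WT was not the lowest of *Pld6* KO. *Pcdhb1*, which stands apart from the other beta genes at the front of the cluster, had 0.0997 in WT, 0.127 in the *Pld6* KO and 0.0115 in the *Dnmt3l* KO. The order of the genes was largely kept between WT and *Pld6* KO, with a rho of 0.73 over the 22 genes. This is a description across genes of both libraries, which are separate but share the base composition and mappability of each gene.

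Within the beta windows the pooled methylation level was higher at the front. The windows were divided, after their profile had been seen, into a start-proximal part from 0.25 kb before to 1 kb after the start and a distal part made of the last 5 of the 10 bins of 0.25 kb after it. The start-proximal parts together had 0.194 (0.175 to 0.214) in WT, 0.294 (0.273 to 0.316) in the *Pld6* KO and 0.0295 (0.0191 to 0.0451) in the *Dnmt3l* KO, and the distal parts, which hold 959 CpG sites against 531, had 0.0762 (0.0677 to 0.0857) in WT, 0.0947 (0.0855 to 0.105) in the *Pld6* KO and 0.00409 (0.00175 to 0.00953) in the *Dnmt3l* KO. In WT 8 of 22 beta genes had a start-proximal level of at least 0.3, and 0 of 22 had such a level in the distal part. These counts, and those that follow on which part of a gene was higher, were not taken over the genome. The distal level of WT was the lower one with intervals apart in 10 of 22 genes. It was the higher one in 6 of 22, with intervals apart in 1 of them, *Pcdhb1*, which had 0.0549 (0.0301 to 0.0982) start-proximal and 0.23 (0.142 to 0.349) distal. The start-proximal level was 0.814 (0.674 to 0.903) in *Pcdhb16*, 0.636 (0.466 to 0.778) in *Pcdhb21* and 0.544 (0.427 to 0.657) in *Pcdhb19*, against 0.033 (0.0113 to 0.0925) in *Pcdhb22* at the end of the cluster. In *Pld6* KO the start-proximal level was above WT in 20 of 22 beta genes (90.9%), against 55.5% of 17402 genes over the genome in the same part. In 4 of the 22 (18.2%) the *Pld6* KO interval lay above the WT interval, against 2.39% of those genes. Neither genome share was matched for WT level or number of calls, on which such counts also depend. In *Pcdhb7* the part had 0.0172 (0.00305 to 0.0914) in WT, 0.381 (0.271 to 0.504) in the *Pld6* KO and 0 (0 to 0.184) in the *Dnmt3l* KO, on 58, 63 and 17 calls. In *Pcdhb20* it had 0.4 in WT, 0.72 in the *Pld6* KO and 0.05 in the *Dnmt3l* KO. *Pcdhb13*, whose whole window was the furthest above WT in *Pld6* KO with 0.255 in WT, 0.406 in the *Pld6* KO and 0.0244 in the *Dnmt3l* KO, had 0.46 in WT, 0.608 in the *Pld6* KO and 0.0392 in the *Dnmt3l* KO there. *Pcdhb21* was the beta gene whose window was the furthest below WT in *Pld6* KO, with 0.253 in WT, 0.19 in the *Pld6* KO and 0.0549 in the *Dnmt3l* KO, although the interval of that difference, 0.0633 (-0.00716 to 0.136), included 0. Over all start-proximal parts, the WT minus *Pld6* KO difference was -0.1 (-0.129 to -0.0709), and it lay between -0.109 and -0.0907 under the other ways of choosing or weighting the sites.

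In the gamma cluster the A and B subfamilies, whose genes alternate along the chromosome, differed. The 12 gamma A windows had 0.244 (0.23 to 0.258) in WT, 0.257 (0.245 to 0.27) in the *Pld6* KO and 0.0398 (0.0314 to 0.0504) in the *Dnmt3l* KO, and the 7 gamma B windows had 0.0696 (0.0607 to 0.0798) in WT, 0.0788 (0.0691 to 0.0897) in the *Pld6* KO and 0.00306 (0.00104 to 0.00896) in the *Dnmt3l* KO. The gamma A level minus the gamma B level was 0.174 (0.157 to 0.191) in WT, 0.179 (0.162 to 0.195) in the *Pld6* KO and 0.0367 (0.0264 to 0.0475) in the *Dnmt3l* KO, so that it was seen in 3 of 3 libraries. The neighbours *Pcdhga4* and *Pcdhgb2* give an example. *Pcdhga4* (chr18:37685237-37841870) had 0.425 (0.371 to 0.481) in WT, 0.37 (0.323 to 0.42) in the *Pld6* KO and 0.0272 (0.0106 to 0.0679) in the *Dnmt3l* KO, and *Pcdhgb2*, the next gene, had 0.116 in WT, 0.0799 in the *Pld6* KO and 0.0098 in the *Dnmt3l* KO. The WT levels of the B genes ran from 0.0201 in *Pcdhgb7* to 0.116 in *Pcdhgb2*, and 9 of the 12 A genes lay above all of them. The other A genes, *Pcdhga10*, *Pcdhga11* and *Pcdhga12*, had WT levels of 0.107, 0.0622 and 0.0971, in the range of the B genes.

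Of the parts measured, the distal part of the variable exon set the A genes furthest apart. In the 1 kb before the start, *Pcdhga1* to *Pcdhga9* together had 0.408 (0.346 to 0.473) in WT on 228 calls. *Pcdhga10* to *Pcdhga12* had 0.264 (0.183 to 0.366) there on 87 calls. The start-proximal parts of *Pcdhga1* to *Pcdhga9* had WT levels of 0.0174 to 0.105, and those of *Pcdhga10* to *Pcdhga12* had 0.022 to 0.0647, so that all 12 were weakly methylated around the start and in the front of the exon. The distal parts of *Pcdhga1* to *Pcdhga9* had 0.602 to 0.98 in WT and 0.706 to 0.86 in *Pld6* KO, against 0.703 and 0.722 over all calls of these libraries. Those of *Pcdhga10* to *Pcdhga12* had 0.0725 to 0.107 in WT and 0.0781 to 0.0984 in *Pld6* KO. The groups did not overlap in WT or in *Pld6* KO, and their pooled levels differed by 0.689 (0.649 to 0.724) in WT. These sets of A genes were formed after the values had been seen, so that the numbers describe them and test nothing. The distal parts of the first set held 15 to 32 CpG sites each, those of the second 47 to 67. In *Dnmt3l* KO the distal parts of the first set had 0.132 (0.102 to 0.17) together, with 0.364 in *Pcdhga6* and 0.316 in *Pcdhga1* as the highest and 0 of 32 calls in *Pcdhga8* as the lowest. In the second set 0 of 254 calls were methylated. *Pcdhga9* was the gamma gene furthest above WT in *Pld6* KO, with 0.218 in WT, 0.336 in the *Pld6* KO and 0.0246 in the *Dnmt3l* KO over its whole window.

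**Figure D2:**
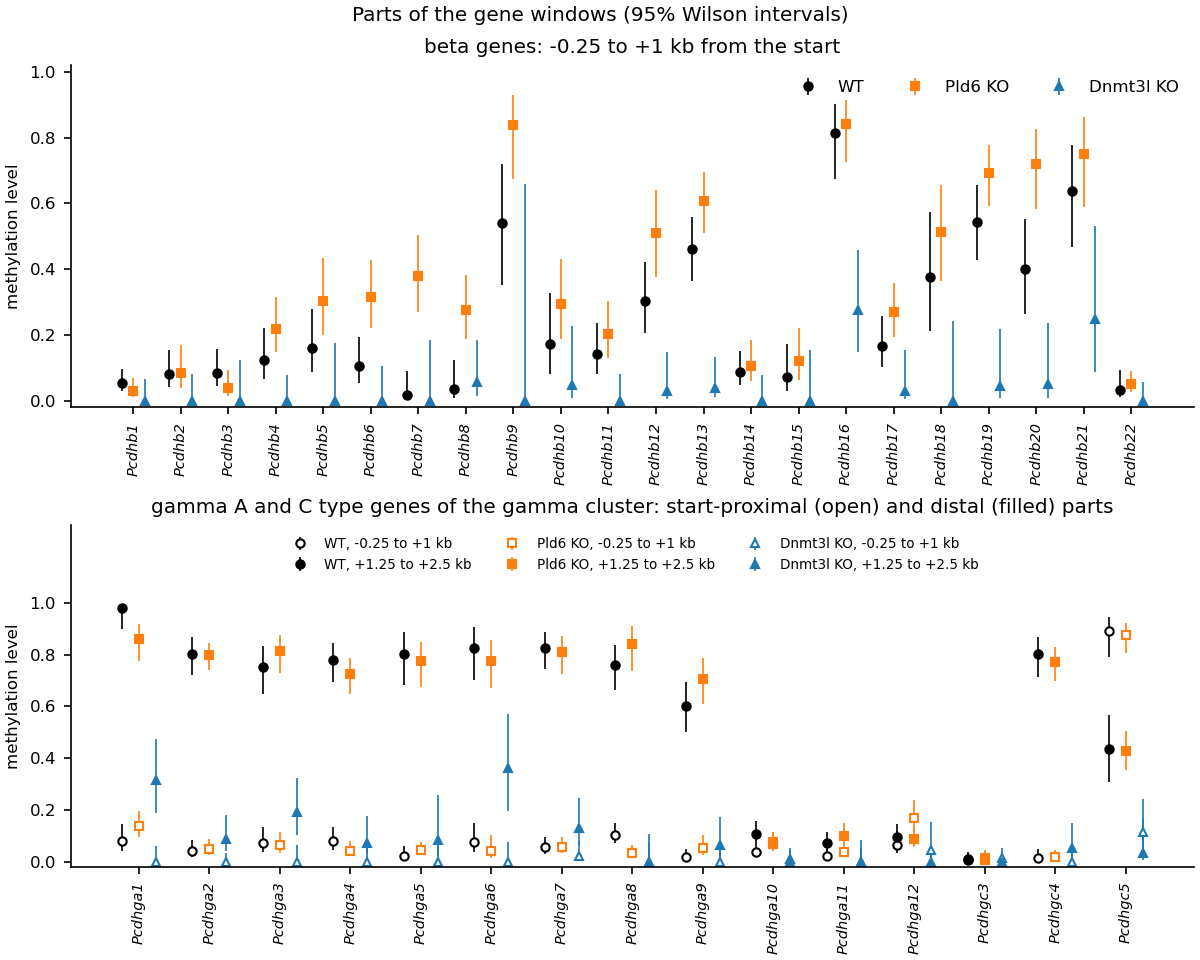
Methylation level (vertical axis, fraction) of parts of single gene windows by library, with 95% Wilson intervals. The upper panel shows the start-proximal parts of the beta genes, which reached 0.814 in *Pcdhb16* in WT, and the lower panel the start-proximal (open) and distal (filled) parts of the gamma A and C type genes, where the distal parts of *Pcdhga1* to *Pcdhga9* were at 0.602 or above in WT and those of *Pcdhga10* to *Pcdhga12* at 0.107 or below.

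The profiles around the starts gave each group its own shape. In the bins of 0.25 kb, the alpha alternate genes dropped from 0.92 in the bin that begins 1.5 kb before the start to 0.0491 in the first bin after it, stayed at or under 0.122 through the bin from 2.25 kb, and were back at 0.52 in the bin from 3 kb. The gamma B genes had a similar outline, with 0.0173 in the first bin after the start. The beta genes kept 0.15 in that bin, peaked within the exon at 0.293 in WT and 0.464 in *Pld6* KO in the bin from 0.75 kb, and were lowest within the exon, at 0.0446 in WT, in the bin from 1.5 kb, where the CpG-rich back of their exon begins. Within the exon the gamma A genes ran the other way, from 0.03 in the bin from 0.25 kb to 0.53 in the bin from 2 kb. In the beta genes the bin with the most CpG sites, from 1.75 kb, had 0.0655 in WT, and in the gamma A genes that from 0.25 kb was the lowest of the exon. In the alpha genes the densest bin, which ends 1.5 kb after the start, had 0.108, more than the sparser bin from 0.5 kb with 0.0453. Within the exon, the gamma A genes in *Dnmt3l* KO stayed at or under 0.0495 up to the bin from 1.75 kb. They had 0.114 and 0.138 in the bins from 2 and 2.25 kb. WT was already at 0.453 in the bin that ends at 1.5 kb. The 1 kb before the start of these genes had 0.0928 (0.0496 to 0.167) in *Dnmt3l* KO.

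**Figure D3:**
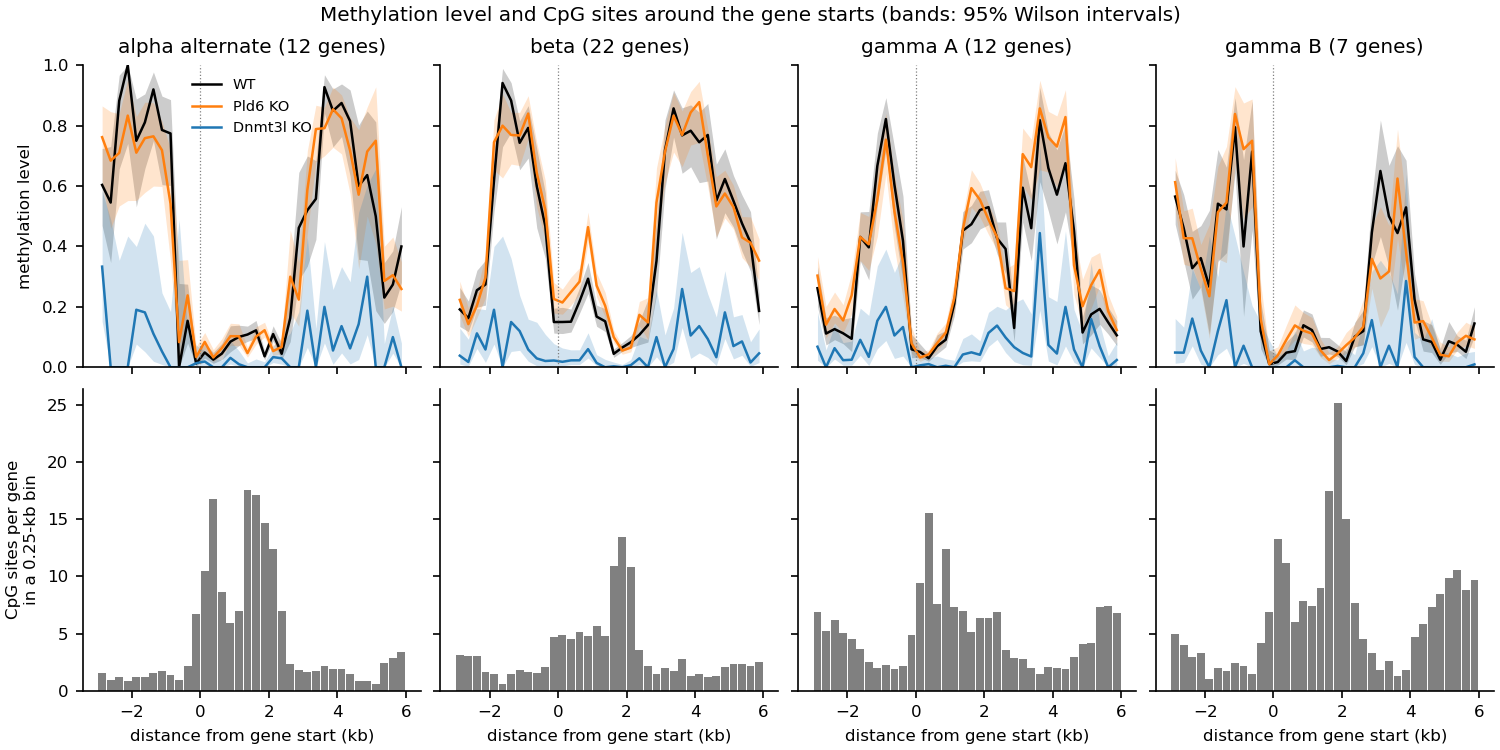
Methylation level (upper row, fraction, bands are 95% Wilson intervals) and CpG sites per gene (lower row) in bins of 0.25 kb against the distance from the gene start in kb, for 4 groups of genes and 3 libraries. In WT the gamma A genes were at 0.53 in the bin from 2 kb while the beta genes were at 0.083 there.

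The 5 C type genes, which end the alpha and gamma clusters, were the most diverse. *Pcdhgc5* (chr18:37819546-37841873), the last gene of the gamma cluster, had the highest window level of all 58 genes, with 0.728 (0.651 to 0.793) in WT, 0.65 (0.595 to 0.7) in the *Pld6* KO and 0.134 (0.0766 to 0.224) in the *Dnmt3l* KO. It was methylated at its front, with a start-proximal WT level of 0.891 (0.791 to 0.946) against 0.434 (0.309 to 0.567) in the distal part. *Pcdhgc3* (chr18:37806410-37841873), the first of the gamma C types, had the lowest WT level of all 58 genes, with 0.0119 (0.00547 to 0.0257) in WT, 0.0098 (0.00476 to 0.0201) in the *Pld6* KO and 0.012 (0.00407 to 0.0345) in the *Dnmt3l* KO, and no difference between the libraries could be detected on 504, 714 and 251 calls. By its interval, WT minus *Dnmt3l* KO lay there between -0.0235 and 0.0159. *Pcdhgc4*, between them, had 0.246 (0.206 to 0.291) in WT, 0.25 (0.215 to 0.288) in the *Pld6* KO and 0.0233 (0.00908 to 0.0583) in the *Dnmt3l* KO. Its start-proximal part had 0.0139 in WT and its distal part 0.802, the shape of *Pcdhga1* to *Pcdhga9*. *Pcdhac1* had 0.13 (0.0947 to 0.175) in WT, 0.104 (0.0776 to 0.137) in the *Pld6* KO and 0.0333 (0.0114 to 0.0935) in the *Dnmt3l* KO and was the highest window of the alpha cluster in WT. *Pcdhac2* had 0.0782 (0.056 to 0.108) in WT, 0.0693 (0.0503 to 0.0949) in the *Pld6* KO and 0.00538 (0.00095 to 0.0298) in the *Dnmt3l* KO. In both, the methylation lay in the distal part, with WT levels of 0.473 and 0.373 there against 0.0442 and 0 of 244 calls in the start-proximal part.

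**Figure D4:**
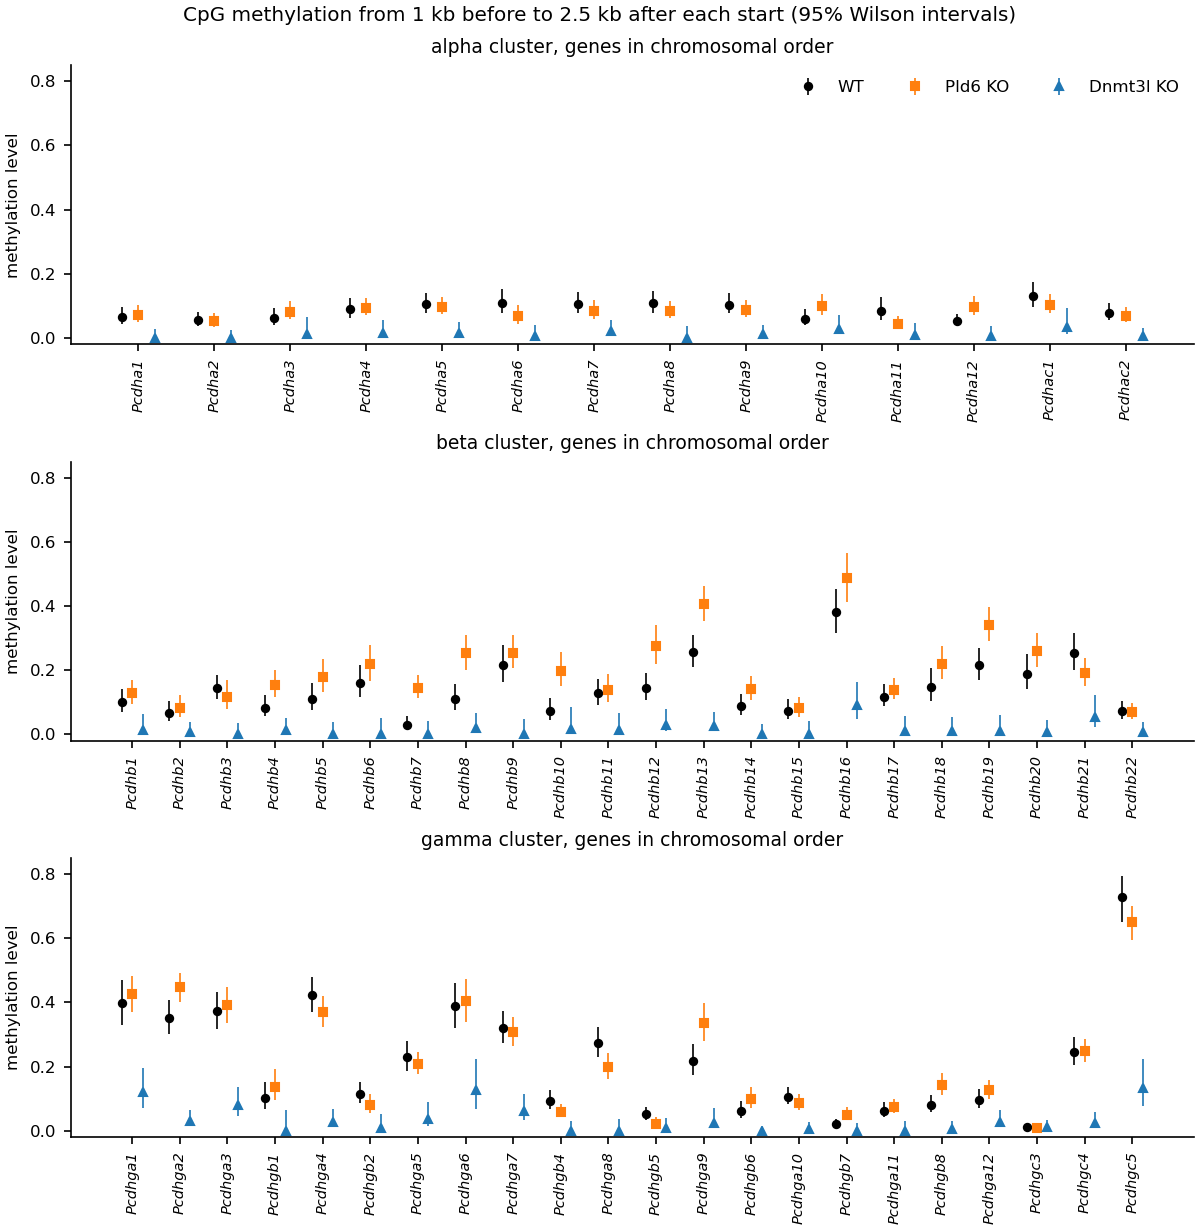
Methylation level (vertical axis, fraction) of the window of each of the 58 genes in chromosomal order, one panel per cluster and one symbol per library, with 95% Wilson intervals. The *Dnmt3l* KO symbols lie at or under 0.134, and *Pcdhgc5* stands highest in WT and *Pld6* KO.

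In *Dnmt3l* KO, 57 of 58 genes (98.3%) had a lower level than in WT, against 92.2% of 17949 genes over the genome. In 52 of the 58 (89.7%) the interval of the difference lay above 0, against 53.8% of those genes, a count that also depends on the number of calls. *Pcdha3*, *Pcdha10*, *Pcdhb7*, *Pcdhb10*, *Pcdhgb7* and *Pcdhgc3* were the others, which were at 0.0723 or less in WT. No methylated call was found in 16 of 58 genes (27.6%), against 10.6% over the genome. In the 16 genes 3 calls would have been a level of 0.0127 to 0.0545, depending on the gene. A level near 0 can include unmethylated cytosines that escaped the bisulfite conversion, which were not counted here. A *Dnmt3l* KO level at least 0.3 below WT was found in 3 of 58 genes (5.17%), against 18.8% of 17949 genes over the genome. A gene with a WT level under 0.3 cannot meet this rule, so that it could be met by 8 of the 58 and by none of the alpha genes, against 4590 genes of the genome. Among genes with a WT level of at least 0.3, it was met by 3 of 8 in the clusters (37.5%) and by 73.5% over the genome. These shares are not matched for WT level. Apart from *Pcdhgc5*, the 8 genes had WT levels of 0.321 to 0.425, which leaves little room for a difference of 0.3. The 3 genes that met the rule were *Pcdhgc5*, *Pcdhga4* and *Pcdhga2*, and *Pcdhga3* and *Pcdhb16* were just short of it with 0.293 and 0.291. The count depended on the window, and was 10 of 52 genes with a promoter window from 2 kb before to 0.5 kb after the start (19.2%), against 17.1% of 16241 genes over the genome in that window. Of the 10, 8 were beta genes.

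Relative to WT, the median clustered gene kept less methylation than the median gene of the genome. Among the 55 genes with a WT level of at least 0.05, the *Dnmt3l* KO level was at most 0.2 of the WT level in 46 (83.6%), against 23.3% of 13925 genes over the genome by the same rule. The count was 12 of 14 in the alpha, 18 of 21 in the beta and 16 of 20 in the gamma cluster. The median gene of the clusters kept 9.81% of its WT level, the median gene of the genome 36.6%, and the median gene with 55 to 186 CpG sites in its window, the range of the clusters, 36.4%. Among the 34 other genes within 1 Mb of the clusters with a WT level of at least 0.05, 4 were at or under 0.2 (11.8%). This rule was chosen after the values had been seen, and the genes of a cluster are neighbours of like sequence, so that the shares are a description. The 9 genes above 0.2 were *Pcdha10*, *Pcdhac1*, *Pcdhb10*, *Pcdhb16*, *Pcdhb21*, *Pcdhga1*, *Pcdhga3*, *Pcdhga6* and *Pcdhga12*. *Pcdhga6* kept the highest *Dnmt3l* KO level of the alternate genes, with 0.389 in WT, 0.405 in the *Pld6* KO and 0.127 in the *Dnmt3l* KO.

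In *Pld6* KO, 0 of 58 genes had a level at least 0.3 below WT, against 0.229% of 19679 genes. A *Pld6* KO level at least 0.05 above WT was found in 16 of 58 genes (27.6%), close to the 26.2% of all genes, but unevenly, with 0 of 14 in the alpha, 13 of 22 (59.1%) in the beta and 3 of 22 in the gamma cluster. A level at least 0.05 below WT was found in 4 of 58 genes (6.9%), *Pcdhb21*, *Pcdhga4*, *Pcdhga8* and *Pcdhgc5*, against 10.2% of all genes. The 13 beta genes above WT were *Pcdhb4* to *Pcdhb8*, *Pcdhb10*, *Pcdhb12* to *Pcdhb14*, *Pcdhb16* and *Pcdhb18* to *Pcdhb20*. In 10 of 22 beta genes (45.5%) the whole interval of the difference lay on the side of a higher *Pld6* KO level, against 19.6% of all genes, and in 0 of 22 on the other side, against 4.47%. The shares of all genes were not matched for WT level or number of calls. Over the genome, *Pld6* KO was above WT in 66.5% of genes, and among the 58 in 62.1%. In the gamma cluster 4 genes lay above WT by that measure, *Pcdhga2*, *Pcdhga9*, *Pcdhgb7* and *Pcdhgb8*, and 3 below it, *Pcdhga8*, *Pcdhgb4* and *Pcdhgb5*. With 1 library per genotype, a shift of the beta genes between libraries and an effect of the genotype cannot be told apart.

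The spaces of each cluster kept a larger share of their WT level in *Dnmt3l* KO than its windows did. In *Dnmt3l* KO the spaces had 0.152 (0.131 to 0.176) in the alpha, 0.0973 (0.0783 to 0.12) in the beta and 0.253 (0.224 to 0.284) in the gamma cluster, which was 21.8%, 15% and 42.4% of WT, against 13.1%, 10.7% and 15.8% in the windows. Over all calls of the libraries the share was 42.8%. In the spaces, the WT minus *Dnmt3l* KO difference was 0.547 (0.516 to 0.576), 0.551 (0.517 to 0.582) and 0.344 (0.305 to 0.38). The smaller value of the gamma cluster grew to 0.444 when only DNA at least 1 kb away from any window was counted. *Pld6* KO had 0.671 in the spaces of the gamma cluster against 0.597 in WT, and was within 0.0268 of WT in those of the others. The gap between the alpha and beta clusters had 0.597 in WT, 0.59 in the *Pld6* KO and 0.139 in the *Dnmt3l* KO, and the gap between the beta and gamma clusters had 0.538 in WT, 0.542 in the *Pld6* KO and 0.147 in the *Dnmt3l* KO. The 100 kb before the alpha cluster had 0.643 in WT, 0.634 in the *Pld6* KO and 0.126 in the *Dnmt3l* KO. On the other side, the 100 kb after the gamma cluster had 0.777 in WT, 0.797 in the *Pld6* KO and 0.434 in the *Dnmt3l* KO, so that the *Dnmt3l* KO level there was above that of the windows and spaces of every cluster.

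The shared constant exons had few calls. The 3 constant exons of the alpha cluster, which encode the cytoplasmic part common to all alpha protocadherins, had 0.4 (0.286 to 0.526) in WT, 0.696 (0.606 to 0.774) in the *Pld6* KO and 0.188 (0.0889 to 0.353) in the *Dnmt3l* KO, on 60, 112 and 32 calls, and nearly all of these lay in the third one. The WT minus *Dnmt3l* KO difference there was 0.212 (0.0113 to 0.373). The WT minus *Pld6* KO difference was -0.296 (-0.435 to -0.141), which rests on 60 WT calls. The 3 constant exons of the gamma cluster had 0.544 (0.442 to 0.643) in WT, 0.525 (0.448 to 0.6) in the *Pld6* KO and 0.191 (0.115 to 0.3) in the *Dnmt3l* KO, with a WT minus *Dnmt3l* KO difference of 0.353 (0.204 to 0.478). The first gamma constant exon was nearly unmethylated, with 0.0833 (0.0149 to 0.354) on 12 calls in WT and 0 of 26 calls in *Pld6* KO, whereas the third had 0.605 (0.493 to 0.708) in WT.

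The number of CpG sites in a window went with its level in the gamma cluster. The windows held 55 (*Pcdhb9*) to 186 (*Pcdhgc3*) CpG sites. The gamma B genes had 114 to 150, the alpha alternate genes 114 to 142, the gamma A genes 69 to 131 and the beta genes 55 to 103. *Pcdhga10*, *Pcdhga11* and *Pcdhga12*, the weakly methylated A genes, had 128, 131 and 129, as many as the B genes. Across the 22 gamma genes, Spearman's rho between CpG sites and level was -0.931 in WT, -0.928 in the *Pld6* KO and -0.748 in *Dnmt3l* KO. Across the 22 beta genes it was -0.082 in WT, and across the 14 alpha genes -0.174. These values describe genes measured in the same libraries, not independent replicates, and no test was made. WT calls per CpG site had a rho of 0.00395 with the WT level in the gamma cluster, -0.398 in the beta and -0.538 in the alpha cluster, and the part of depth in the order of the beta and alpha genes was not tested.

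**Figure D5:**
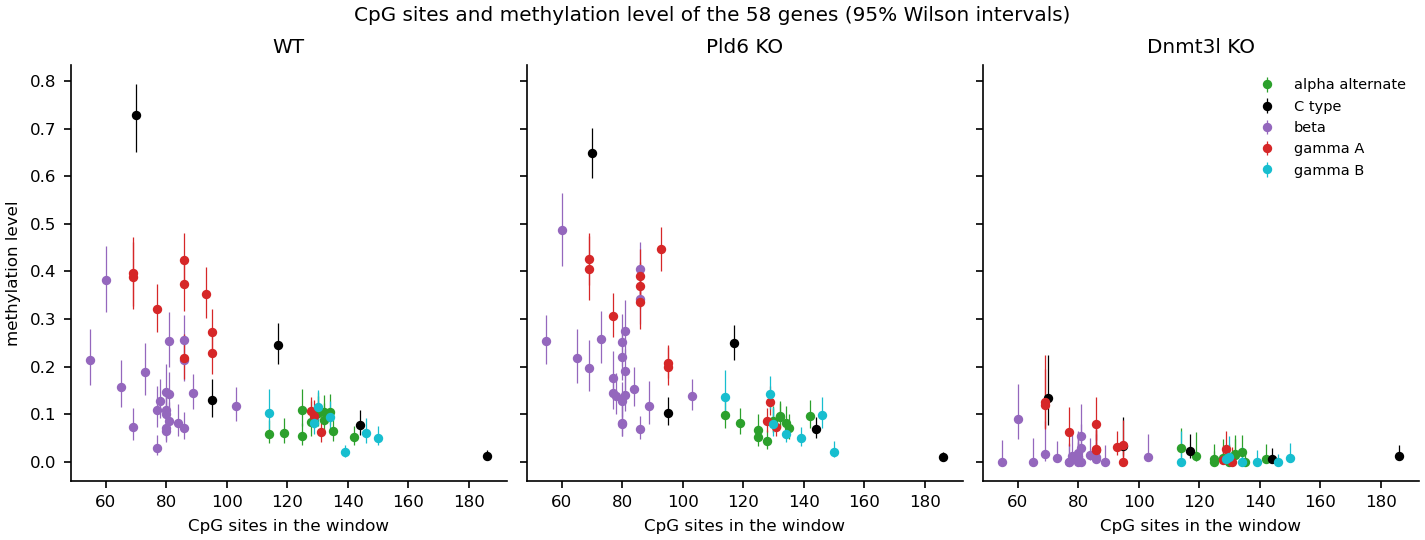
CpG sites in the window (horizontal axis) against the methylation level (vertical axis, fraction) of the 58 genes, one panel per library, coloured by group, with 95% Wilson intervals. Genes with more than 117 CpG sites had WT levels of 0.116 or less, whereas the beta genes spread from 0.0297 to 0.382 at 55 to 103 sites.

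Repeated sequence between the genes limits what unique reads can show. Stretches of 80 bases that occur again elsewhere in the clusters made up 2.51% to 11.8% of the windows of the alpha alternate genes, 0.438% to 9.38% of those of the gamma B genes, and at most 3.62% and 1.67% of those of the beta and gamma A genes. None of the 3 libraries had a call at 9.13% of the CpG sites of the alpha windows, 1.68% of those of the beta and 4.39% of those of the gamma windows. *Pcdhgb1* and *Pcdha11* had the most such sites, 26 of 114 and 26 of 128. Reads of near-identical copies can also be placed on the wrong gene, which was not tested.

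The protocadherin genes outside the clusters and the genes of the same pathway were measured in the same window. It was placed at the outermost start of each RefSeq gene, which need not be the start used in germ cells. The windows of *Dnmt3a* and *Dnmt1* held only 25 and 49 CpG sites. Of 12 non-clustered protocadherin genes, 11 had a WT level under 0.15, with a median of 0.0111 over all 12. Over the genome the median WT level was 0.124, so that a level under 0.15 was common. *Pcdh12*, a protocadherin of endothelial cells, was the exception, with 0.853 (0.799 to 0.894) in WT, 0.858 (0.811 to 0.895) in the *Pld6* KO and 0.63 (0.515 to 0.732) in the *Dnmt3l* KO. *Pcdh18* had 0.141 in WT, 0.0913 in the *Pld6* KO and 0 in the *Dnmt3l* KO. Of the 15 genes for promoter choice and repression, 10 were under 0.15 in WT, among them *Ctcf*, which encodes the insulator protein that binds the clustered promoters, with 0.0453 in WT, 0.0558 in the *Pld6* KO and 0.0176 in the *Dnmt3l* KO, and *Smchd1*, a repressor of the clusters, with 0.031 in WT, 0.0319 in the *Pld6* KO and 0.0266 in the *Dnmt3l* KO. *Dnmt3b*, the methyltransferase known for the alternate promoters in the embryo, had 0.085 in WT, 0.0834 in the *Pld6* KO and 0.0111 in the *Dnmt3l* KO. *Dnmt1*, the maintenance methyltransferase, had 0.431 in WT, 0.706 in the *Pld6* KO and 0.208 in the *Dnmt3l* KO. *Dnmt3a*, the main *de novo* methyltransferase of germ cells, had 0.889 (0.796 to 0.943) in WT, 0.91 (0.838 to 0.952) in the *Pld6* KO and 0.158 (0.0552 to 0.376) in the *Dnmt3l* KO, a WT minus *Dnmt3l* KO difference of 0.731 (0.494 to 0.847) that rests on 19 calls in *Dnmt3l* KO. In the 14 others the *Dnmt3l* KO level was less than 0.3 below WT, and 12 of them were under 0.3 in WT, where no such difference is possible. The 4 genes of signalling partners, *Ptk2*, *Ptk2b*, *Fyn* and *Ret*, had WT levels of 0.0218 to 0.0905. Of the 4 genes next to or between the clusters, *Zmat2* before the alpha cluster had 0.374 in WT, 0.374 in the *Pld6* KO and 0.0417 in the *Dnmt3l* KO, and *Taf7*, in the gap before the gamma cluster, had 0.0903 in WT, 0.146 in the *Pld6* KO and 0.125 in the *Dnmt3l* KO. *Slc25a2* had 0.142 in WT, 0.161 in the *Pld6* KO and 0.0189 in the *Dnmt3l* KO and *Diaph1*, behind the gamma cluster, 0.0825 in WT, 0.0943 in the *Pld6* KO and 0.0282 in the *Dnmt3l* KO. *Zmat2*, the one of the 4 with a WT level over 0.3, had a *Dnmt3l* KO level at least 0.3 below WT.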

How the data were processed

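Whole-genome bisulfite libraries of FACS-purified P7 spermatogonia were prepared by the authors by post-bisulfite adaptor tagging, and single-end reads were mapped with Bismark to mm10, using uniquely mapped reads. For each CpG site the authors deposited counts of methylated and unmethylated calls, and their ratio as a fraction. The counts were used here, without a coverage minimum, and the fraction equalled their ratio at every site. No removal of duplicate reads is stated in the sources used here. Gene positions came from RefSeq on GRCm38, the assembly that mm10 names, and every listed site lay on a reference CpG. Levels, Wilson and Newcombe intervals were computed in Python 3.11.15 with numpy 2.4.6 and pandas 2.3.3, and rank correlations with scipy 1.17.1. The intervals were tested on simulated calls that were drawn independently of each other. Calls that share a read and a spread between libraries were not part of that test. Coverage was 2 calls per CpG site in WT, 2.92 in the *Pld6* KO and 0.879 in *Dnmt3l* KO. Genes over the genome were the protein-coding RefSeq genes with at least 20 calls in both libraries compared. Constant exons were exons shared by at least 90% of the genes of a cluster. Left out of the genes over the genome were 3 readthrough genes, *Gm37013*, *Gm38666* and *Gm38667*, which start in the windows of alpha genes and so hold the same DNA.

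The genes and lists were chosen with earlier results of these data known. Named in each cluster were, among genes with at least 50 calls in each library, those with the highest and lowest WT level, the largest and smallest difference between WT and *Dnmt3l* KO and the largest differences between WT and *Pld6* KO, and always the C type genes and *Pcdhb1*. Further genes were named after their values had been seen. The alternatives changed the calls required or allowed at a site, the sites compared, the weighting of sites, the window, the threshold and the calls required of a gene.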

Additional observations from a re-analysis of the deposited data

How the results depend on the processing

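Of the 95 values recomputed under other settings, 74 stayed within the counting interval of the reported value or, for counts of genes, within 1.5 times of it. Most of the others came from the window. With a window of 0.5 kb on either side of the start, the WT minus *Dnmt3l* KO difference was 0.0263 in the alpha, 0.154 in the beta and 0.0502 in the gamma windows, and with the promoter from 2 kb before to 0.5 kb after the start it was 0.106, 0.299 and 0.137. These windows hold other CpG sites by construction. The WT minus *Pld6* KO difference was -0.0187 and -0.0153 in the alpha windows under these settings, with the other sign, and -0.0802 and -0.0714 in the beta windows. With the mean of the site levels, the WT minus *Dnmt3l* KO difference was 0.139 in the beta windows and 0.396 in the spaces of the gamma cluster, and the WT minus *Pld6* KO difference was -0.00284 in the gamma windows. With at least 3 calls at a site the beta windows gave 0.112 for WT minus *Dnmt3l* KO, and with sites called in all 3 libraries the gamma windows gave 0.158. The spaces of the gamma cluster at least 1 kb from any window gave 0.444. The cause of these shifts was not tested. Genes with a *Dnmt3l* KO level at least 0.3 below WT numbered 5 with at least 3 calls at a site, 6 with sites called in all 3 libraries, 10 with the promoter from 2 kb before the start, 13 at a difference of 0.2 and 1 at 0.4. No paired analysis was possible because 1 library per genotype was analysed. The settings for the spaces away from windows, the parts of windows, the A and B genes, the rise in *Pld6* KO and the share kept in *Dnmt3l* KO were chosen after seeing the data. Depth limits single parts of windows in *Dnmt3l* KO the most.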

Other observations

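Outside the gene windows, tiles of up to 2 kb with at least 20 calls in both WT and *Pld6* KO were searched for a level under 0.2 in both of these libraries. Of 130 such tiles in the spaces and gaps, 6 were found. The spaces of the alpha and beta clusters held 0 of 33 and 0 of 26. The gap between the alpha and beta clusters held 1 of 12, chr18:37216898-37218897, with 0.0119 (0.00327 to 0.0424) in WT, 0.0207 (0.00809 to 0.0521) in the *Pld6* KO and 0 (0 to 0.0366) in the *Dnmt3l* KO. It holds 52 CpG sites, lies 47.1 kb from the nearest start of a clustered gene, and overlaps no RefSeq gene other than long readthrough models. In the gap between the beta and gamma clusters both tiles overlap a gene, *Slc25a2* and *Taf7*. The spaces of the gamma cluster held 3. The one with the most calls, chr18:37768081-37770080, had 0.0649 (0.0375 to 0.11) in WT, 0.0673 (0.0405 to 0.11) in the *Pld6* KO and 0 (0 to 0.052) in the *Dnmt3l* KO and 44 CpG sites. It directly follows the weakly methylated window of *Pcdhga12* and lies 3.5 kb from the nearest start of a clustered gene. Another, chr18:37822047-37824046, follows the window of *Pcdhgc5*, and had 0.0991 in WT, 0.149 in the *Pld6* KO and 0.0408 in the *Dnmt3l* KO. The third, chr18:37749517-37750618, is shorter than 2 kb and fills the space between the weakly methylated windows of *Pcdhga10* and *Pcdhgb7*. It had 0.0698 in WT, 0.0811 in the *Pld6* KO and 0 in the *Dnmt3l* KO on 43, 37 and 13 calls.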
